A study of Mus musculus with 10 samples.

Results

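Gene expression in skeletal muscle of wild-type (WT) mice was described from total RNA, in the 3 libraries labelled as WT total RNA out of 10 libraries in the series. The libraries were chosen by these labels alone. Per the labels, the mice were male C57BL/6 animals, 6 weeks old, that had been on a high-fat diet (HFD) for 2 weeks. All 3 libraries share that sex, age and diet, so the levels below are those of young males on HFD. The labels do not say which muscle was taken, nor whether the 3 libraries came from separate animals, so the spread between them may be technical. The study asked what IMP2, the mRNA-binding protein encoded by Igf2bp2, does in muscle, and the WT libraries are its reference state. Whether the WT mice carried an unrecombined targeted allele is not given in the sources used here. No genotypes were compared here and no test between groups was made.

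Skeletal muscle fibres are long multinucleated cells whose contractile unit, the sarcomere, slides thin actin filaments past thick myosin filaments. Fibres are typed by their myosin heavy chain: slow type I fibres use Myh7 and rely on oxidative metabolism, while fast IIA, IIX and IIB fibres use Myh2, Myh1 and Myh4 and rely increasingly on glycogen, glycolysis and phosphocreatine. Fast and slow fibres also use different genes for the light chains, the troponins and the calcium pump, and the tissue between fibres holds vessels, nerves, fibroblasts, macrophages, tendon and fat.

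The libraries held 14809788, 13934240 and 12299030 reads assigned to genes, which are called counts here. Levels are given as CPM, a gene's counts per 1000000 gene counts of its library. CPM ranks and sums say which genes took a library's counts, and long genes take more. Transcript levels of different genes are therefore given per length, as TPM, which divides counts by length before the same scaling, computed from the bases of all annotated exons of a gene. Of 43629 genes in the files, 12381 reached 1 CPM in every library and 21408 had no count in any. Genes with a mean of at least 1000 CPM numbered 89, and 1219 more lay between 100 and 1000 CPM. Reads aligned to several places made up 36.5%, 36.9% and 26.1% of all reads in libraries 1, 2 and 3, so library 3 differed from the others before any gene was counted. For a gene with no count, counting error alone leaves room for 3 counts, or 0.203 to 0.244 CPM depending on the library.

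Genes of the fast contractile apparatus took the largest shares of the counts. Of the 20 genes with the highest mean CPM, 11 belonged to a list of fast fibre genes, 4 to a list of sarcomere and Z disc genes, 3 to glycolysis, and none to a list of 13 slow fibre genes. Myh4, the heavy chain of type IIB fibres (ENSMUSG00000057003, GRCm38 chromosome 11, 67238029 to 67260446, plus strand), stood first with 55278, 55190 and 38742 CPM, a mean of 49736 ± 9522 CPM (SD, n = 3). Acta1, which encodes skeletal muscle actin (ENSMUSG00000031972, chromosome 8, 123891769 to 123894751, minus strand), followed with 38570, 45658 and 20559 CPM. Library 3 was the lowest for both genes. Next came Atp2a1, the fast calcium pump SERCA1, with 30650, 28618 and 21904 CPM, and then Tpm1, a tropomyosin of the thin filament, with 24632, 23306 and 23215 CPM. Ckm, the muscle creatine kinase that rebuilds ATP from phosphocreatine, had 22254, 18517 and 11291 CPM. Aldoa, the aldolase of glycolysis, had 21182, 18944 and 10212 CPM. Both genes were highest in library 1 and lowest in library 3. Defining genes of skeletal muscle, the labelled tissue, were thus among the highest in every library.

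**Figure D1:**
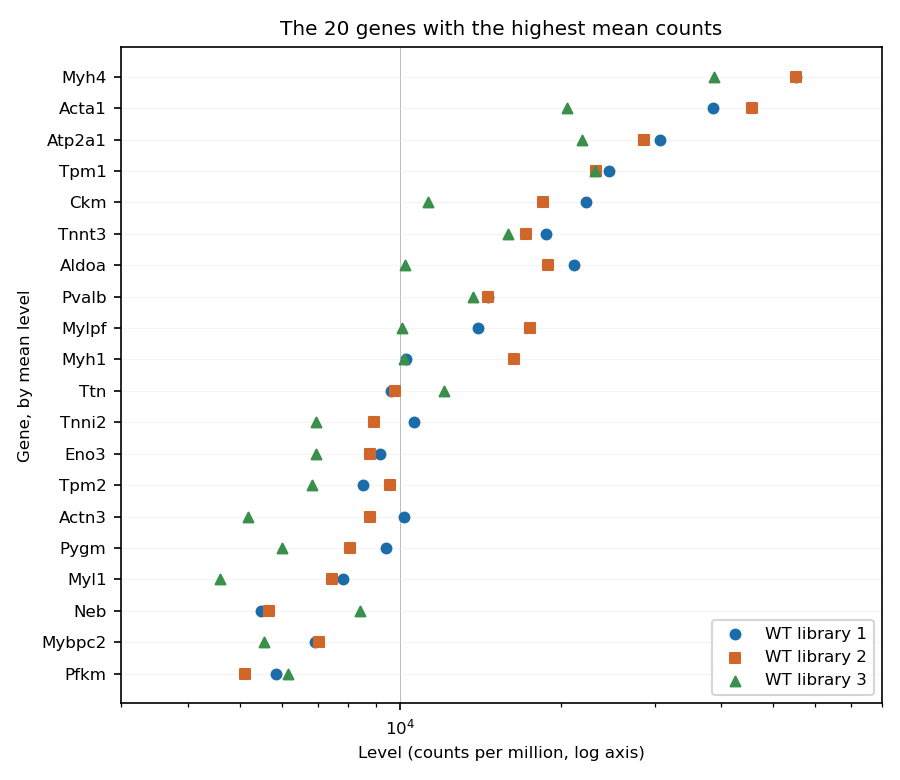
Levels of the 20 genes with the highest mean, 1 point per library, on a logarithmic axis of CPM. Library 3 holds the lowest value for 17 of the 20 genes (19 with TMM scaling), and its points for Ttn, Neb and Pfkm lie to the right of the other 2.

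Divided by length, the order changed. Acta1 stood first with 68946 ± 22914 TPM (SD, n = 3), followed by Pvalb with 42140 ± 701 TPM. Pvalb encodes parvalbumin, the calcium buffer that speeds the relaxation of fast fibres. By CPM it was almost level between libraries, at 14609, 14600 and 13714 CPM. The TMM scaling described further on moves log2 levels of library 3 by -0.23 and raises the others, so Pvalb is less level with it. Mylpf, the fast regulatory light chain, came next at 39706 TPM, then Tnnt3, the fast troponin T, at 33480 TPM and Myh4 at 25221 TPM. Ttn, which encodes the giant spring protein titin, held rank 11 by CPM and rank 351 by TPM, with a mean level of 277 TPM. Neb, the nebulin that runs along the thin filament, went from rank 18 to rank 119. The 20 highest genes by CPM and the 20 highest by TPM had 15 in common. A pair of short RNA genes entered the list by TPM, Mir6236 at 17941 TPM and Gm23935 at 10016 TPM, and every 50-base stretch of Gm23935 also occurs in another gene, so its count is uncertain.

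The promoters of 4 muscle genes are shown, 3 of which hold, close to the start, an E-box or CArG box, short motifs long associated with muscle genes. The sequences are the 120 bases before the RefSeq transcription start (GRCm38.p6), 5′ to 3′ on the gene's strand. Capitals mark a TATAAA or TATATA box, the E-box CAGCTG, or a CArG box, the site of serum response factor. Acta1 and Myh4 were the 2 most abundant genes by CPM, and Mylpf is a fast light chain. Tnnc1, the slow troponin C, has a TATATA match alone among the marked motifs, and as a single gene it does not stand for slow genes as a set.
Acta1, chr8:123894776-123894895, minus strand: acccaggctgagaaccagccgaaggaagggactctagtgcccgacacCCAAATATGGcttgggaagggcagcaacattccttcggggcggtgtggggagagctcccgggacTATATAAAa
Myh4, chr11:67237692-67237811, plus strand: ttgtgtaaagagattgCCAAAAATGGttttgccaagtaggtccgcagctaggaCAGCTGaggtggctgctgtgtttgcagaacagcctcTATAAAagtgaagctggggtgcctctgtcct
Mylpf, chr7:127211488-127211607, plus strand: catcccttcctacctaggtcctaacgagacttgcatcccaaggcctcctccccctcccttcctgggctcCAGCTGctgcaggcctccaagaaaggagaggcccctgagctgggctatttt
Tnnc1, chr14:31208192-31208311, plus strand: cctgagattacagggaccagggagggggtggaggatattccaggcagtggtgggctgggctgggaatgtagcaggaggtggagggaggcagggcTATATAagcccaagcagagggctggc

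In Acta1 the TATATA and TATAAA matches overlap. A search of the 250 bases before the start covered 49 RefSeq promoters of 34 of the 50 most abundant genes. CAGCTG, read on both strands, was in 38.8% of them and in 13.0% of all 32851 promoters of the same length. A CArG box on either strand was in 12.2% against 1.47% of all, and a MEF2 box on either strand in 14.3% against 2.92%. The looser E-box CANNTG, of which CAGCTG is a case, was in 79.6% against 66.2%. On the gene's strand, TATAAA was in 6.12% against 7.59% and TATATA in 10.2% against 5.25%. In 17 promoters of 12 slow fibre genes, CAGCTG was in 29.4%, a CArG box in 5.88%, a MEF2 box in 11.8% and CANNTG in 100%. In 12 promoters of 11 fast fibre genes, the same motifs were in 41.7%, 8.33%, 25% and 75%. Both sets are small. These are matches of letters, several genes have more than 1 promoter, and no binding was measured.

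A small number of genes took much of each library. The 20 highest genes held 33.4%, 33.5% and 24.7% of the gene counts in libraries 1, 2 and 3, and the 10 highest 25.1%, 25.6% and 17.8%. In library 1, 115 genes made up 50% of the counts, in library 2, 105 genes, and in library 3, 248 genes. Library 3 was thus less concentrated than the other 2, which lay close together. The identity of the leading genes was shared: 17 genes were among the 20 highest in every library, and 42 among the 50 highest. Of the 20 highest by mean, 7 lie on chromosome 7, among them Atp2a1, Ckm, Tnnt3, Aldoa and Mylpf, and 3 on chromosome 11 (Myh4, Myh1 and Eno3). Protein-coding genes held 98.6%, 98.2% and 97.6% of counts.

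**Figure D2:**
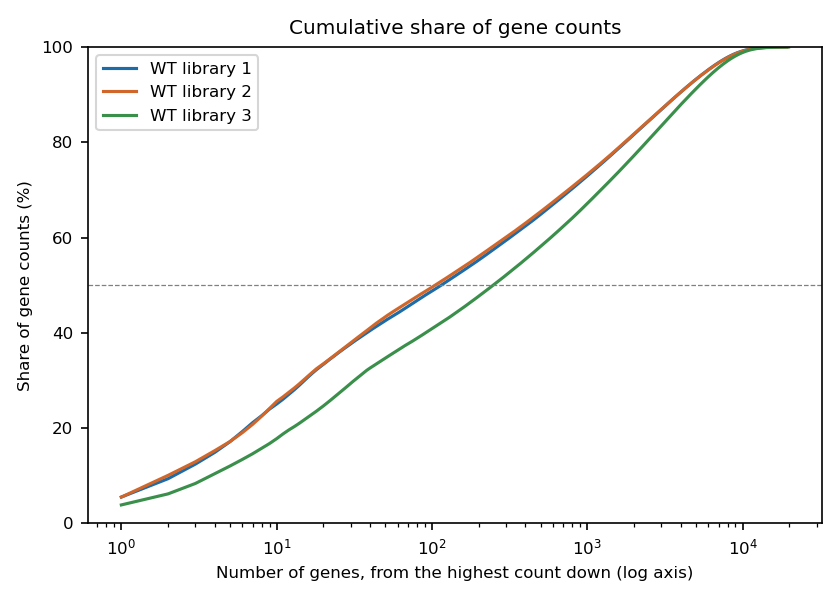
Cumulative share of gene counts (percent) against the number of genes, taken from the highest gene downwards in each library. The curves of libraries 1 and 2 lie on each other, and that of library 3 runs below them, reaching 50% at 248 genes instead of 115 and 105.

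Among the adult myosin heavy chains, Myh4 made up most of the transcripts in every library. Per kilobase, its share of the 4 genes was 84.2%, 77.0% and 78.3%, a mean of 79.9% ± 3.80 (SD, n = 3). Myh1, the heavy chain of IIX fibres, held 14.8%, 21.6% and 19.5%, and Myh2, that of IIA fibres, held 1.03%, 1.35% and 1.99%. Library 1 had the largest Myh4 share and the smallest shares of both Myh1 and Myh2. Myh7, the slow heavy chain, held 0.00538%, 0.00769% and 0.184%, from 75, 110 and 1603 counts. The Myh7 share was therefore near 0 in libraries 1 and 2 and higher in library 3, and its mean of 0.0657% describes none of the 3. Of the 50-base stretches, 18.9% of Myh4, 26.7% of Myh1, 26.9% of Myh2 and 22.2% of Myh7 also occur in other genes. Reads in them may have been lost as reads of several places, so the Myh4 share may be somewhat too high. The developmental heavy chains were low: Myh8, the perinatal form, had 8.44, 18.7 and 9.19 CPM, and Myh3, the embryonic form, had 2.23, 8.18 and 6.67 CPM. Library 2 was the highest for Myh8 and Myh3.

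The fast forms also prevailed in the rest of the contractile machinery. In each of 28 pairs of related genes, which cover contractile, metabolic and other genes, 1 form is typical of fast or mature muscle. That form made up more than 50% of the transcripts per kilobase in every library in all 28. It made up at least 90% in every library in 21 pairs. The contractile pairs that did not reach this were those of troponin C, myosin-binding protein C and alpha actinin. The slow troponin I Tnni1 held 0.00688%, 0.0274% and 0.175% against the fast Tnni2, and the slow troponin T Tnnt1 held 0.0279%, 0.0249% and 0.278% against Tnnt3. The slow regulatory light chain Myl2 held 0.0158%, 0.0347% and 0.460% against Mylpf. The calcium pump SERCA2, encoded by Atp2a2, held 0.0951%, 0.141% and 0.344% against Atp2a1. In each of these pairs library 3 had the largest slow share. The share of Mybpc1, the slow form of myosin-binding protein C, was far larger, at 25.6%, 30.3% and 43.7% against Mybpc2. Actn2, an alpha actinin of the Z disc found in all fibres, held 9.96%, 14.2% and 16.1% against Actn3, the form of fast fibres. Mybpc1 and Actn2 were likewise lowest in library 1 and highest in library 3.

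The troponin C pair stood apart from the other troponins, with the slow Tnnc1 at 0.721%, 1.68% and 15.0%. The fast Tnnc2 had 272, 158 and 144 CPM, and a mean of 731 TPM, whereas its partners Tnni2 and Tnnt3 had means of 17992 and 33480 TPM. Of the exon bases of Tnnc2, 74.0% overlap another gene, Ube2c, and reads in such stretches may not have been assigned to either gene. The Tnnc2 level and the troponin C percentages may therefore be too low and too high, respectively.

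**Figure D3:**
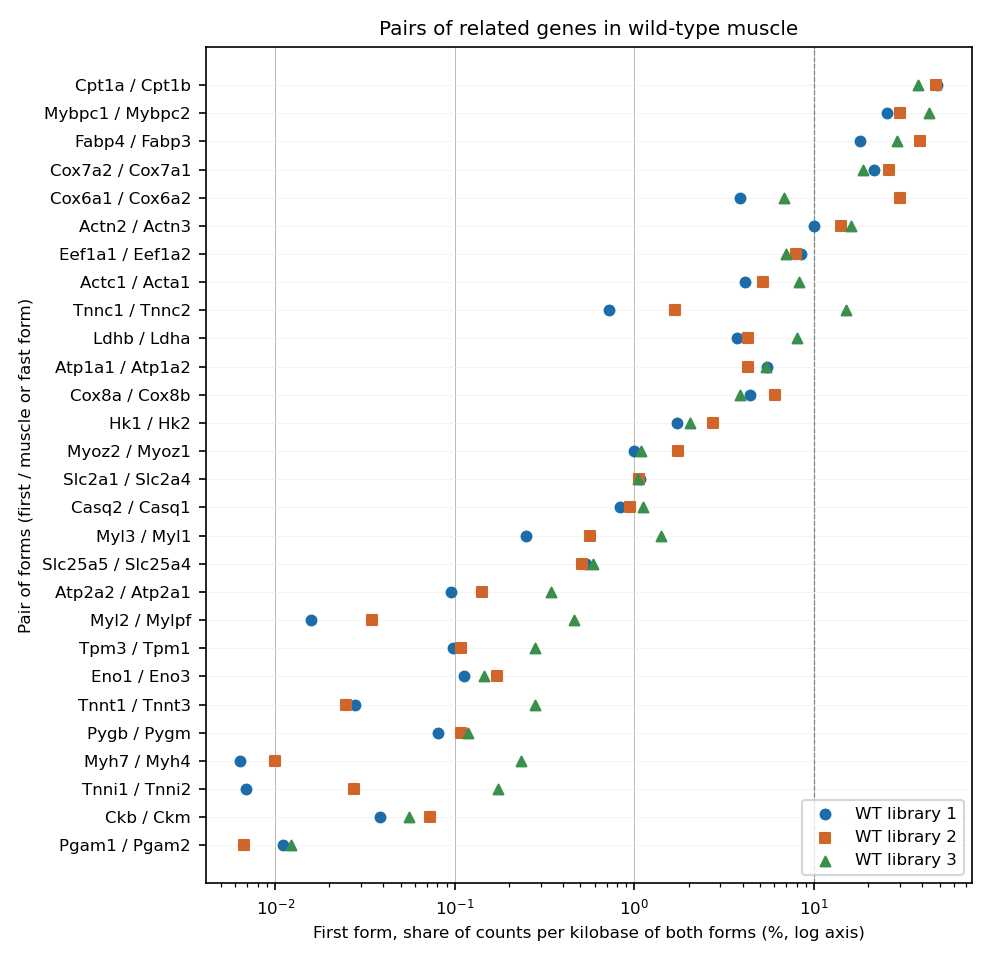
Share of the minor form (percent of counts per kilobase of both forms, logarithmic axis) in 28 pairs of related muscle genes, 1 point per library. In 21 pairs all points lie at or below 10%; for the slow forms of the contractile genes, library 3 usually lies to the right.

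The 15 fast fibre genes together held 211504, 213159 and 163132 CPM, and the 13 slow fibre genes 401, 579 and 1079 CPM. Among the slow genes, Ankrd2, a stretch-responsive ankyrin repeat protein, was the highest by CPM with 122, 172 and 208 CPM. It was followed by Csrp3, a Z disc LIM protein, with 68.5, 108 and 149 CPM. Both genes were highest in library 3 by CPM, but with the TMM scaling described further on, Ankrd2 was highest in library 2. Actc1, the cardiac and developmental actin, was abundant at 1746, 2618 and 1952 CPM and made up 4.12%, 5.16% and 8.27% of the 2 striated actins per kilobase. Tcap, the titin cap of the Z disc, had 3762, 2774 and 3285 CPM and stood at 10613 TPM. Among the giant proteins of the sarcomere, Ttn had 9629, 9772 and 12094 CPM and Neb 5490, 5674 and 8402 CPM, both highest in library 3. By CPM 19 of the 30 sarcomere and Z disc genes were highest in library 3, beside 65.6% of all genes with a mean of at least 10 CPM. With TMM 5 were, beside 35.0% of all, so these counts do not set the list apart as high in library 3. With TMM, Neb was still highest in library 3, while Ttn had a 1.04-fold range and was highest in library 2.

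Calcium handling genes, which release and take up calcium at the sarcoplasmic reticulum, held 50478, 49080 and 38760 CPM. Most of this sum was Atp2a1, which is also in the fast fibre list, with 30650, 28618 and 21904 CPM. Ryr1, the calcium release channel, had 4678, 5078 and 4510 CPM, and Casq1, the fast calsequestrin that stores calcium, had 4554, 5048 and 3634 CPM. Their order of libraries was the same, with library 2 highest. Sln, which encodes the SERCA inhibitor sarcolipin, was at 0.473, 0.359 and 3.01 CPM, near the counting limit in libraries 1 and 2.

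Per length, glycolysis genes held the largest sum of the metabolic lists, 54850 ± 8790 TPM (SD, n = 3), beside 39123 ± 2943 TPM for respiratory complexes III to V and 29342 ± 3968 TPM for phosphagen and adenylate genes. Complex I held 17138 TPM, the citric acid cycle with pyruvate dehydrogenase 15796 TPM, glycogen genes 12432 TPM, and fatty acid uptake and oxidation 7374 TPM. The respiratory chain is split between separate lists, so this order of lists does not place glycolysis above the chain as a whole. The sums also leave out the mitochondrially encoded genes, for which no counts were present. As shares of all counts, glycolysis genes held 51844, 48774 and 34713 CPM, phosphagen and adenylate genes 29722, 25106 and 19786 CPM, and glycogen genes 16869, 15089 and 13827 CPM. All 3 sums were highest in library 1 and lowest in library 3. By TPM the leading glycolytic genes were Aldoa at 17509, Eno3, the muscle enolase, at 14609, and Pgam2, the muscle phosphoglycerate mutase, at 7614. Pfkm, the muscle phosphofructokinase that sets the pace of glycolysis, had 5863, 5118 and 6152 CPM and was highest in library 3, or in library 1 with TMM. Pygm, the muscle glycogen phosphorylase, had 9426, 8063 and 5998 CPM. Ckmt2, the mitochondrial creatine kinase, had 2583, 2333 and 3692 CPM, highest in library 3, where Ckm was lowest.

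Muscle forms prevailed among the enzymes as well. The brain creatine kinase Ckb held 0.0385%, 0.0729% and 0.0558% against Ckm, and the ubiquitous enolase Eno1 held 0.112%, 0.172% and 0.146% against Eno3. Ldhb, the heart form of lactate dehydrogenase, held 3.74%, 4.28% and 7.99% against Ldha. Slc2a1, the ubiquitous glucose transporter, held 1.07%, 1.06% and 1.04% against the insulin-responsive Slc2a4, with an SD of 0.0129 percentage points. The lowest mean share in the 28 pairs was that of Pgam1, with 0.0110%, 0.00669% and 0.0123% against Pgam2, although Myh7 and Tnni1 had lower shares in library 1. Of Pgam1, 41.5% of the 50-base stretches also occur in other genes, and of Eno1 72.2%. Reads of both may have been lost as reads of several places, so their shares may be too low.

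Mitochondrial energy genes of the nuclear genome were closer between libraries. Respiratory complexes III to V held 21504, 22627 and 21081 CPM, complex I 8530, 8943 and 8588 CPM, and the citric acid cycle with pyruvate dehydrogenase 18874, 17524 and 20004 CPM. Atp5b, the beta subunit of ATP synthase, had 4540, 4188 and 4578 CPM, the most of complexes III to V. Fatty acid uptake and oxidation held 7489, 7303 and 7977 CPM, of which Lpl, lipoprotein lipase, took 459, 932 and 454 CPM. Library 2 was the highest for Lpl, and libraries 1 and 3 were alike. The ranges of these 4 sums were 1.05-fold to 1.14-fold by CPM and 1.18-fold to 1.38-fold with TMM, against 1.22-fold to 1.502-fold and 1.54-fold to 1.89-fold for glycogen, glycolysis and phosphagen genes. Of the genes with a mean of at least 10 CPM, a 2-fold range between libraries was found for 0 of 30 in the citric acid cycle, 1 of 30 in fatty acid use (Lpl), 2 of 36 in complex I and 4 of 36 in complexes III to V. It was found for 0 of 9 phosphagen, 1 of 17 glycogen and 2 of 24 glycolysis genes, and for 12.2% of all 8208 genes, so these counts do not set the mitochondrial lists apart. None of the 37 genes encoded in mitochondrial DNA had a count, so the mitochondrially encoded subunits were not analysed here.

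For some lipid and respiratory genes, the form not typical of muscle held a large share. Cox6a1, the ubiquitous cytochrome oxidase subunit, held 3.89%, 30.1% and 6.82% against the muscle form Cox6a2, and was high in library 2 only. Fabp4, the fatty acid binding protein of adipocytes and endothelium, held 18.1%, 38.7% and 28.8% against the muscle form Fabp3. Cpt1a, the liver form of the carnitine palmitoyltransferase that admits fatty acids to mitochondria, held 48.4%, 47.7% and 37.7% against Cpt1b. This last share is uncertain, since 81.4% of the exon bases of Cpt1b overlap another gene, Gm44502, and 93.0% of its 50-base stretches occur elsewhere. Of Fabp3, 29.2% of the 50-base stretches also occur in other genes, and of Fabp4 0%, so the Fabp4 share may be too high.

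Genes for protein synthesis were moderate in level. A list of 15 elongation genes, which also holds initiation factors such as Eif4g1 and Eif4g2, had a sum of 5818, 5596 and 4550 CPM. It was led by Eef1a2, the elongation factor form of mature muscle, with 1357, 1378 and 896 CPM. In this list 4 genes share at least 25% of their 50-base stretches with other genes, so its sum may be too low. The 54 ribosomal protein genes held 3311, 3472 and 2451 CPM. Of these, 40 share at least 25% of their 50-base stretches with other genes, so their sum may be too low. Library 3 was the lowest for both sums.

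Among genes of the fasting and atrophy response, Pdk4, the kinase that turns off pyruvate dehydrogenase, had 1520, 1122 and 776 CPM. The muscle ubiquitin ligases Trim63 and Fbxo32 had 213, 148 and 194 CPM and 154, 121 and 126 CPM. Library 1 was the highest for Pdk4, Trim63 and Fbxo32. Heat shock genes held 4515, 5433 and 4654 CPM, led by the small heat shock protein Hspb6 with 1061, 1628 and 996 CPM. Of the clock genes, Tef was the highest by CPM with 456, 429 and 676 CPM. Per1 had 79.7, 62.4 and 173 CPM and Per2 19.04, 15.14 and 52.85 CPM, so that library 3 was the highest for both. It was the highest for 11 of the 14 clock genes with a mean of at least 10 CPM, beside 65.6% of all genes, and for 8 with TMM, beside 35.0%. The time of day at which muscle was taken is not given in the sources used here.

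Igf2bp2 itself was among the less abundant genes, with rank 11089 by CPM. Its target Igf2, a growth factor, had 21.7, 82.3 and 33.7 CPM, and library 2 was the highest. Of the exon bases of Igf2, 64.6% overlap other genes, so its level may be too low. The neighbouring imprinted noncoding RNA H19 had 2401, 4223 and 2043 CPM, rank 37, and library 2 was again the highest. Per length the mean level was 3566 TPM for H19 and 24.3 TPM for Igf2.

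Markers of other cell types were present at low levels beside the fibre genes. Bulk RNA cannot tell fewer cells of a type from less RNA per cell. The fibroblast and matrix list held 7510, 6550 and 5754 CPM, the most of these lists by CPM but not per length, where it had 3117 TPM against 7108 TPM for the brown adipocyte list with Cox8b and Cox7a1. It was led by Col3a1, a fibrillar collagen, with 1564, 1687 and 1059 CPM and Sparc, a matrix glycoprotein, with 1446, 1202 and 1170 CPM. Endothelial genes held 927, 1047 and 1411 CPM, led by Cdh5, the cadherin of vessel walls, with 159, 186 and 229 CPM. Smooth muscle and pericyte genes held 918, 1083 and 1145 CPM, led by Rgs5 with 379, 428 and 431 CPM. The endothelial sum was highest in library 3 and lowest in library 1.

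Transcripts of the neuromuscular junction, Schwann cell and satellite cell lists were measurable. Genes of the neuromuscular junction held 268, 302 and 483 CPM, led by Chrnb1, a subunit of the acetylcholine receptor, with 67.9, 81.1 and 166 CPM. Schwann cell and myelin genes held 95.9, 157 and 125 CPM, led by Pmp22, a myelin protein, with 43.8, 62.4 and 42.4 CPM. Satellite cell and myoblast genes held 144, 151 and 174 CPM, led by Myf6, a myogenic factor also made by mature fibres, with 79.6, 69.7 and 91.1 CPM. Pax7, the defining gene of satellite cells, the muscle stem cells, had 6.48, 7.18 and 8.86 CPM.

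Several cell types were close to the counting limit. The 10 lymphocyte genes held 2.4, 2.0 and 3.0 CPM in sum, and the keratinocyte and hair genes 3.3, 2.5 and 5.1 CPM, with Krt5 and Krt14 at 0 in every library. The pancreatic islet genes held 0.9, 1.7 and 1.5 CPM and the neuron genes 4.7, 2.4 and 3.1 CPM, with Snap25 and Syt1 at 0. All 4 sums were small beside that of the fast fibre genes. Genes of proliferating cells held 19.7, 21.5 and 13.3 CPM. Xist, the RNA of the inactive X chromosome, had no count in libraries 1 and 2 and 0.244 CPM in library 3, beside the label of male mice.

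**Figure D4:**
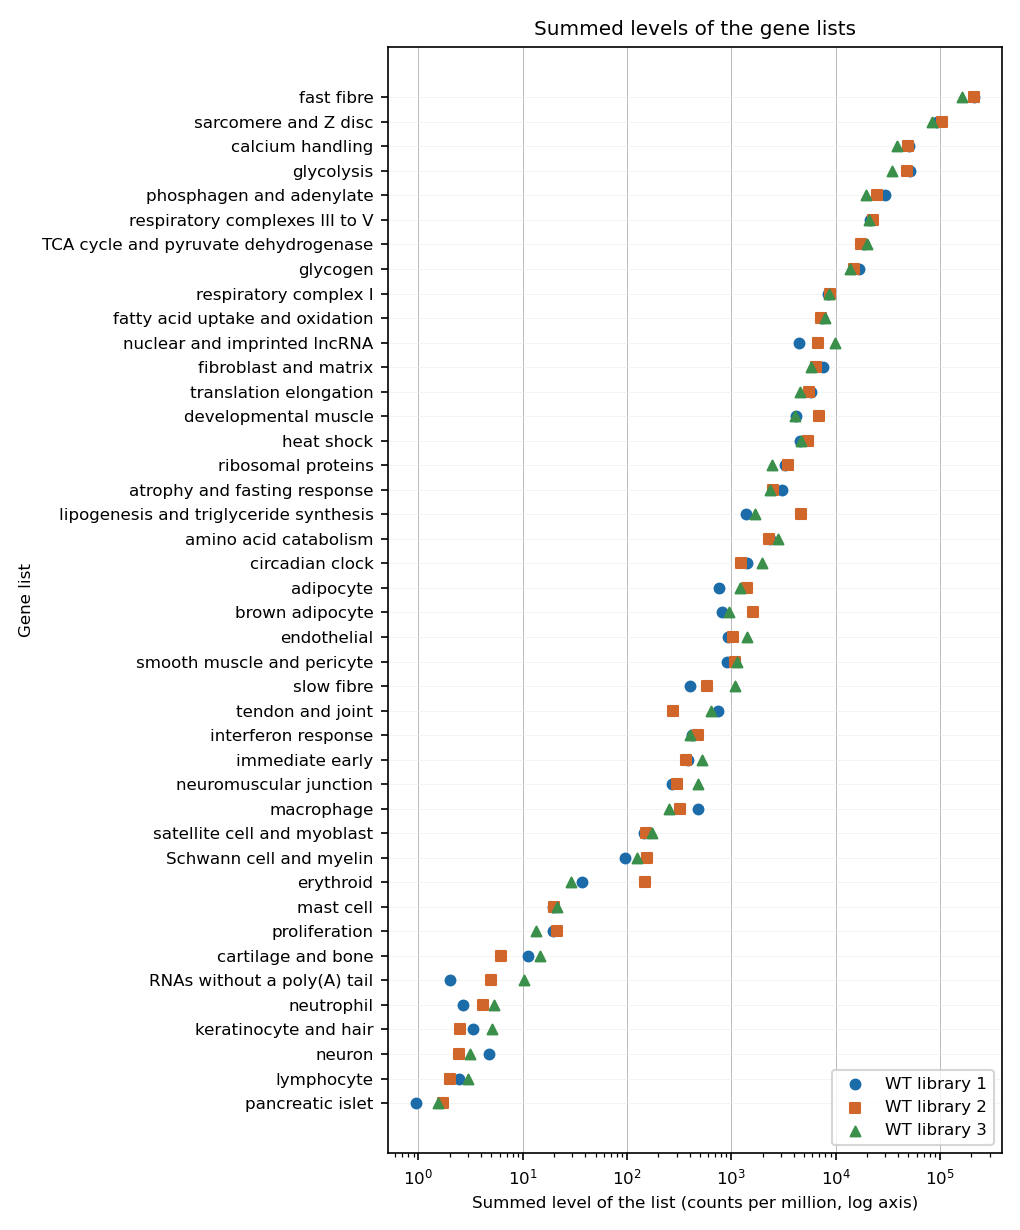
Summed level of each gene list (CPM, logarithmic axis), 1 point per library, from fibre and metabolic lists to markers of other cell types. The fast fibre genes lie at 163132 CPM or more, the slow fibre genes at 401 to 1079 CPM, and the tendon, macrophage and erythroid points lie further apart than those of glycolysis.

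The 3 libraries were not equally alike. Across genes with a mean of at least 10 CPM, the SD of the log2 ratio was 0.41 between libraries 2 and 1, 0.52 between 3 and 1, and 0.56 between 3 and 2. A 2-fold difference separated libraries 1 and 2 for 129 genes, 3 and 1 for 693, and 3 and 2 for 740. The median coefficient of variation over the 3 libraries was 17.1%. The spread beyond counting error, edgeR's common biological coefficient of variation, was 0.238, and 0.170 when library 3 was left out. Library 3 gave fewer of its counts to the highest genes, which on the CPM scale leaves more for the others. TMM factors, which scale libraries so that most genes are level, moved log2 levels by 0.10, 0.13 and -0.23 in libraries 1, 2 and 3, so that folds of library 3 over the others are smaller with TMM than by CPM. With TMM, the highest library for the citric acid cycle and for fatty acid genes became library 1 instead of 3, and for smooth muscle and satellite cell genes library 2 instead of 3.

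Of the 8208 genes with a mean of at least 10 CPM, 1001 (12.2%) had a 2-fold range between libraries, and 678 (8.26%) did with TMM. Library 3 was at least 2-fold above both others for 446 genes (5.43%), but for 129 (1.57%) with TMM. Library 2 was so for 63 genes (0.768%), or 78 (0.95%) with TMM, and library 1 for 5 (0.0609%), or 8 (0.0975%) with TMM. Genes at least 2-fold below both others numbered 21 (0.256%), 20 (0.244%) and 6 (0.0731%) in libraries 1, 2 and 3, and 16 (0.195%), 12 (0.146%) and 73 (0.889%) with TMM.

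In library 2 the leading genes were those of fat. Ucp1, the uncoupling protein that makes heat in brown fat, had 0.135, 209 and 4.31 CPM, from 2, 2919 and 53 counts. Cidea, a lipid droplet protein of brown fat, had 3.85, 273 and 10.2 CPM. Scd1, the stearoyl-CoA desaturase, had 30.4, 2025 and 95.5 CPM, and Fasn, the fatty acid synthase, 16.9, 677 and 55.4 CPM. For all 4 genes library 2 was the highest and library 1 the lowest, and library 3 lay nearer to library 1. Of the 32 genes of 3 fat lists (adipocyte, brown adipocyte, lipogenesis) with a mean of at least 10 CPM, 16 were at least 2-fold above both others in library 2, beside 0.768% of all genes. The lists were chosen with earlier results of these data known. This count, and those of the tendon, slow fibre and macrophage lists below, are therefore descriptions and not independent support.

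The fat lists were not uniform. Cfd, the adipsin of adipocytes, had 44.2, 297 and 44.8 CPM, Cidec 5.13, 76.3 and 6.99 CPM, and Adipoq, adiponectin, 9.79, 33.4 and 12.0 CPM. Lep, leptin, had 2.16, 2.51 and 2.85 CPM and Pparg, the master regulator of adipocytes, 3.17, 4.88 and 6.26 CPM, with no library 2-fold above both others. Plin4, a lipid droplet coat protein, had 348, 308 and 633 CPM and was highest in library 3, with a range of 2.05-fold by CPM and 1.60-fold with TMM. Cox8b and Cox7a1, counted in the brown fat list, are also muscle cytochrome oxidase subunits, and their 398, 691 and 483 CPM and 373, 402 and 403 CPM make up most of that list's sum in every library. The part of fat tissue in other results of library 2 (Lpl, Cox6a1, Fabp4) was not tested.

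Other genes of library 2 were in no fat list, which does not mark them as unrelated to fat. Apoc1, an apolipoprotein, had 0.405, 182 and 3.74 CPM and Kcnk3, a potassium channel, 0.810, 57.8 and 1.54 CPM. Haemoglobin genes followed the same order of the highest library, with Hbb-bs at 21.3, 92.4 and 18.4 CPM, although reads of the globin copies are hard to tell apart. Tendon genes went the other way. Fmod, the fibromodulin of collagen fibrils, had 255, 67.6 and 189 CPM, Thbs4, a thrombospondin, 237, 96.0 and 218 CPM, and Kera, keratocan, 41.7, 6.03 and 38.5 CPM. Library 2 was the lowest for all 9 tendon and joint genes with a mean of at least 10 CPM, beside 46.7% of all genes, and for 8 with TMM, beside 25.6%. Of the 9 genes, 7 had a 2-fold range, beside 12.2% of all genes.

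In library 3 the leading genes were those of slow fibres. Myh7 had 5.06, 7.89 and 130 CPM, which is 16.5-fold above the higher of the other libraries, or 12.9-fold with TMM. Tnnc1 had 2.57, 3.52 and 33.3 CPM (9.46-fold, 7.37-fold with TMM), Tnnt1 7.29, 5.96 and 61.8 CPM (8.47-fold, 6.73-fold with TMM), and Myl2 4.05, 11.2 and 85.4 CPM (7.63-fold, 5.94-fold with TMM). These 4 genes were low in libraries 1 and 2 and several-fold higher in library 3. Of the 13 slow fibre genes, 7 were at least 2-fold above both others in library 3 on either scale, beside 5.43% of all genes by CPM and 1.57% with TMM. Casq2, with 53.2, 67.9 and 57.6 CPM, and Myoz2, with 40.4, 57.7 and 43.3 CPM, were not highest in library 3. The summed slow genes remained a small share, 0.069% of counts on average.

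Several long noncoding RNAs stood high in library 3. Neat1, the scaffold of nuclear paraspeckles, had 1143, 1418 and 5336 CPM, and Meg3, an imprinted RNA, 156, 214 and 1030 CPM. Rian, from the same imprinted locus as Meg3, had 58.9, 96.0 and 313 CPM. The ranges of Neat1, Meg3 and Rian were 4.67-fold, 6.58-fold and 5.30-fold by CPM, and 3.71-fold, 5.23-fold and 4.21-fold with TMM. Malat1, a nuclear RNA, had 621, 801 and 949 CPM and was highest in library 2 with TMM, and H19, which held the highest level of the list, was lowest in library 3. Of 77 long noncoding RNAs with a mean of at least 10 CPM, 28 (36.4%) were at least 2-fold above both others in library 3 by CPM, beside 5.43% of all genes, and 15 (19.5%) with TMM, beside 1.57%. A list of 9 RNAs without a poly(A) tail was also highest in library 3, at 2.03, 4.95 and 10.3 CPM in sum. Its range was 5.10-fold by CPM and 4.05-fold with TMM, but 4 of the 9 had no count. Library 3 also had fewer reads of several places and the smallest share of counts in the 20 highest genes, and the part of these differences in its levels was not tested.

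Library 1 was set apart by few genes. Lyve1, a receptor of lymphatic vessels and resident macrophages, had 20.7, 6.67 and 8.13 CPM. The 10 macrophage genes with a mean of at least 10 CPM were all highest in library 1 on either scale, beside 20.7% of all genes by CPM and 36.3% with TMM. Their list, with its other members, held 480, 320 and 251 CPM. C1qa, a complement subunit made by macrophages, had 50.4, 29.998 and 17.2 CPM and Cd68, a lysosomal protein, 17.4, 9.76 and 5.77 CPM. Of the 10 genes, 7 had a 2-fold range, beside 12.2% of all genes. The general macrophage gene Lyz2 led the list at 154, 103 and 93.4 CPM, and library 3 was lowest for it too.

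**Figure D5:**
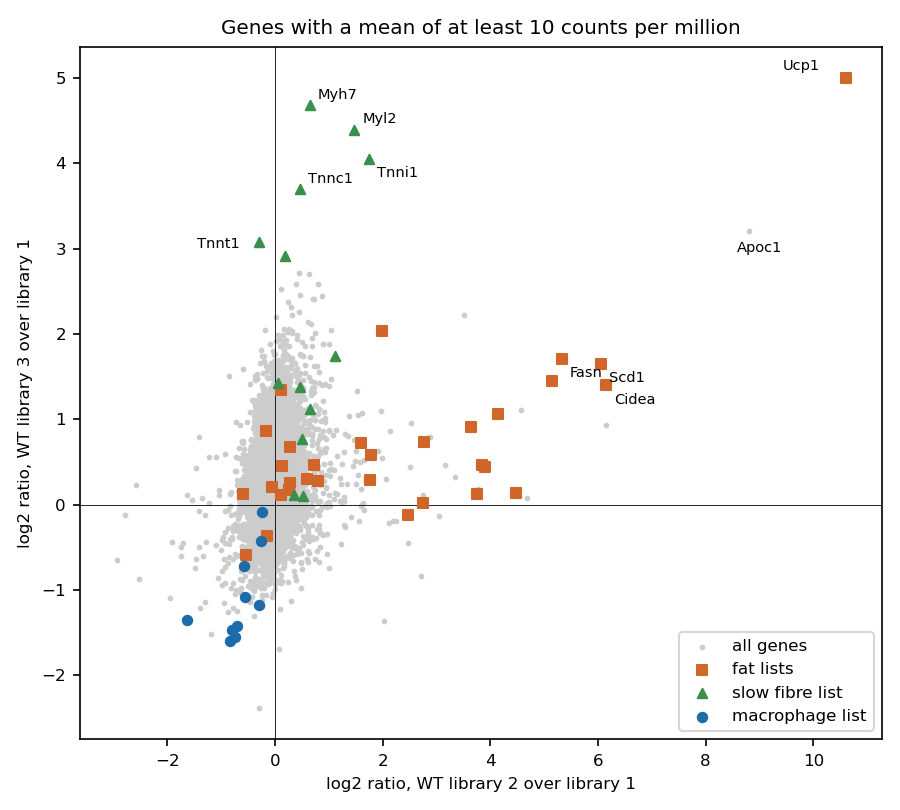
Log2 ratio of library 2 over library 1 (horizontal) and of library 3 over library 1 (vertical) for genes with a mean of at least 10 CPM; squares are genes of the fat lists, triangles slow fibre genes and circles macrophage genes. Fat genes such as Ucp1, Scd1 and Cidea spread to the right, slow fibre genes such as Myh7 upwards, and macrophage genes lie to the lower left.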

How the data were processed

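RNA libraries of WT muscle (TruSeq kit, per the labels) were aligned and counted by the authors with STAR and HTSeq on mm10 / GRCm38, per the submitters' processing notes, and the deposited values are unscaled counts per Ensembl gene. Tool versions, the annotation release and the strand setting are not given in the sources used here, and sense and antisense reads of overlapping genes may be mixed. Lines for reads given to no gene were left out of totals. Such reads were 10.7% to 11.2% outside genes and 3.30% to 3.92% ambiguous. Assigned reads were 49.0% to 58.8% of all.

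Genes were annotated with GENCODE M21 (GRCm38), which matched 42548 of 43629 genes. The others held at most 0.129% of counts. CPM, TPM, shares and SDs were computed with Python 3.11.15, and TMM factors and the biological coefficient of variation with edgeR 4.0.16 (R 4.3.3), checked on simulated data. DESeq2 1.42.0 size factors, filters on low levels, fold limits, gene length and left-out libraries were tried as alternatives. A gene was called set apart at 2-fold.

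Genes were named by rule: the 20 highest by mean CPM, all members of the 28 pairs, up to 4 of the highest of each list, the 10 genes leading each library, the myosin heavy chains, and Ucp1, Igf2bp2, Igf2 and H19. Others were named after their values were seen. Of 715 symbols in 43 lists, 711 were found. Some genes are in more than 1 list. The lists and members were chosen with earlier results of these data known. Sequences came from RefSeq.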

Additional observations from a re-analysis of the deposited data

How the results depend on the processing

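No paired analysis was possible because a single group was described. The count of genes with a 2-fold range was 1001; it was 2678 from a mean of 1 CPM, 254 from 50 CPM, 3066 at 1.5-fold and 75 at 4-fold, and 129 to 740 with a library left out, the low end without library 3. Genes set apart in library 1 numbered 8 with TMM and 8 with DESeq2 factors, 36 from 1 CPM, 1 from 50 CPM, 46 at 1.5-fold and 0 at 4-fold. In library 2 they numbered 147, 15, 136 and 31 under the last 4 settings. In library 3 they numbered 129 with TMM and 139 with DESeq2 factors, then 1021, 119, 1565 and 14. The biological coefficient of variation was 0.272 with library size alone and 0.170 to 0.266 with a library left out. Per kilobase, 54.7 genes on average held 50% of counts, instead of 156, and the 20 highest held 40.2% instead of 30.5%. Of the list sums, 9 had a 2-fold range, and 3 to 6 with a library left out. With TMM there were also 9, but the noncoding RNA, cartilage and keratinocyte lists fell under the limit and the developmental muscle, macrophage and proliferation lists passed it. The minor share moved by more than 1 SD in 17 of 28 pairs with raw counts, and in 7 with the longest transcript as length, an alternative chosen after the data were seen; the muscle form still prevailed in the mean, except for Cpt1a at 64.4% and Fabp4 at 67.0% with raw counts, and Cpt1a at 54.9% with the longest transcript. Filters, fold limits and left-out libraries change how many genes or samples enter. For the other changes, the cause was not tested.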
